A study of Rattus norvegicus with 6 samples.

Results

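The DLK-JNK cascade and the genes of axon survival were followed here in the dorsal root ganglia (DRG) of rats with chronic constriction injury (CCI), a model of neuropathic pain in which the sciatic nerve is tied loosely. The 10 genes were taken by symbol from the deposited gene table, which holds 43350 rows, and each was found. They are the kinases Map3k12, Map3k13, Map2k4, Map2k7, Mapk8, Mapk9 and Mapk10, the scaffold Mapk8ip1, and Sarm1 and Nmnat2. If a symbol stood on more than 1 row, protein-coding rows had precedence, followed by the row with the most counts.

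The samples were L4-6 DRG of male Sprague-Dawley rats taken on day 11, 3 from CCI rats with ligatures around the left sciatic nerve and 3 from sham rats whose nerve was exposed and left untied. The sample labels give no age, list no treatment for sham rats and mention pooling, whereas the methods describe ganglia of the operated side with each sample taken from 1 rat, and the methods were followed. By the study's account, surgery was allotted at random, rats that behaved on day 11 in the way their surgery called for were then kept in the groups, and the 3 rats sequenced from each group were picked at random. RNA was sequenced after ribosomal RNA had been depleted, so that the values are RNA levels of whole ganglia with neurons, glia and other cells together. The library totals, in deposited counts, were 81131861, 80479671 and 75423546 for CCI 1, 2 and 3 and 87615743, 80046488 and 83695350 for sham 1, 2 and 3. Each of the 10 genes had between 2230 and 31469 counts in every library, far above the 3 counts taken as the detection limit.

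DLK, the product of Map3k12, and its relative LZK, the product of Map3k13, are kinases that sense axon damage and signal to the nucleus through the kinases MKK4 and MKK7, products of Map2k4 and Map2k7, and the JNKs, products of Mapk8, Mapk9 and Mapk10. In sensory neurons this route switches on transcription factors such as Jun and Atf3 after nerve injury, and scaffolds such as JIP1, the product of Mapk8ip1, hold its kinases together. SARM1 breaks down NAD and drives axon degeneration, and NMNAT2 is a short-lived NAD-making enzyme that holds SARM1 in check. Much of this control acts on protein amount and phosphorylation, which were not measured here.

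The levels of the 10 genes differed far more between genes than between groups. On the FPKM scale, which corrects counts for row length and library total, mean levels over the 6 samples ran from 3.43 for Map3k13 to 77.2 for Mapk8ip1, a range of 22.5-fold. Nmnat2 followed Mapk8ip1 at 42.5 FPKM and Map2k4 came next at 32.3 FPKM, and the sample values of these 3 genes did not overlap with each other. Mapk10 (19.8 FPKM), Mapk8 (17.1 FPKM), Sarm1 (14.7 FPKM), Mapk9 (14.5 FPKM) and Map3k12 (12.6 FPKM) formed a group in which each gene overlapped with its neighbours in the order. Map2k7 at 6.74 FPKM and Map3k13 lay below that group with no overlap.

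**Figure D1:**
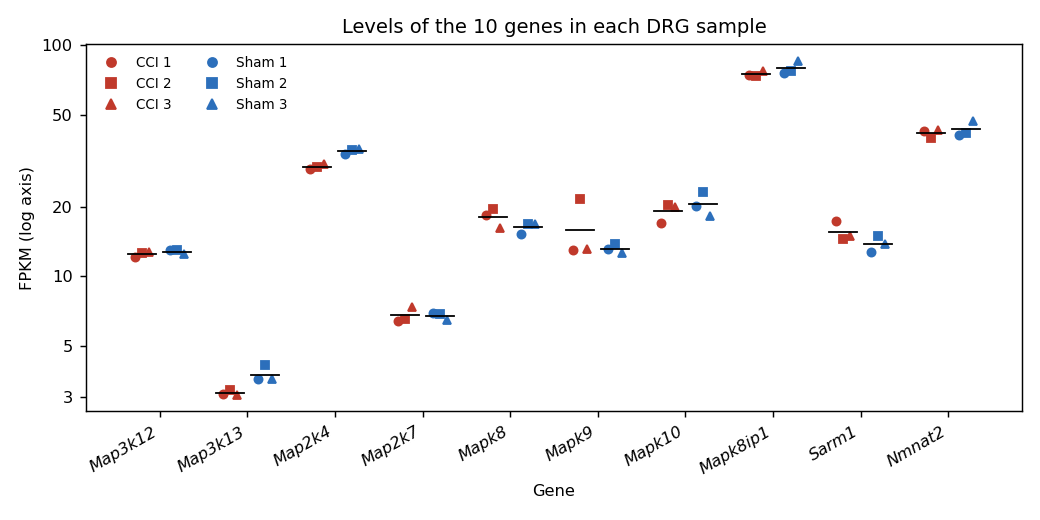
FPKM on a log axis for each of the 10 genes, with 1 point per sample, CCI samples in red, sham samples in blue and black lines at the group means. Map3k13 and Map2k4 are the genes whose CCI points all lie below the sham points, and CCI 2 stands apart in Mapk9.

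To ask whether nerve injury changed these RNAs, the groups were compared with edgeR's quasi-likelihood test over the 26663 rows whose FPKM averaged 0.5 or more. None of the 10 genes was called by edgeR at the limits of the study, an unadjusted p under 0.05 with a log2 fold change beyond 0.58 in either direction, a rule that called 3.83% of the rows tested (2.57% higher and 1.26% lower). None passed a Benjamini-Hochberg adjusted p under 0.05 either, as 0.0938% of rows did. At an unadjusted p under 0.05 alone the count was 2 of 10, Map3k13 and Map2k4, against 10.7% of rows. DESeq2 gave 0 of 10 at the study's limits, against 4.2% of rows, and 1 of 10, Map2k4, at an adjusted p under 0.05, against 3.07% of the rows to which it gave an adjusted p. With limma on log2(FPKM + 0.1) there were 0 and 0 of 10, against 3.97% and 0.0675% of rows. Of the 10 genes, 7 were fitted lower and 3 higher, with a median log2 fold change of -0.059 against 0.0055 for all rows tested. The median size of the log2 fold change was 0.13 for the 10 genes and 0.16 for all rows.

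The 95% intervals show how large a difference these samples leave possible. For 9 of the 10 genes the interval lay within the fold limit of 0.58 on both sides, and Mapk9 was the exception. The half-width of the interval was 0.12 in the most precise gene, Map3k12, and 0.48 in Mapk9. In whole ganglia, fewer cells of a type and less RNA per cell cannot be told apart, so each value below is a level of the tissue.

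**Figure D2:**
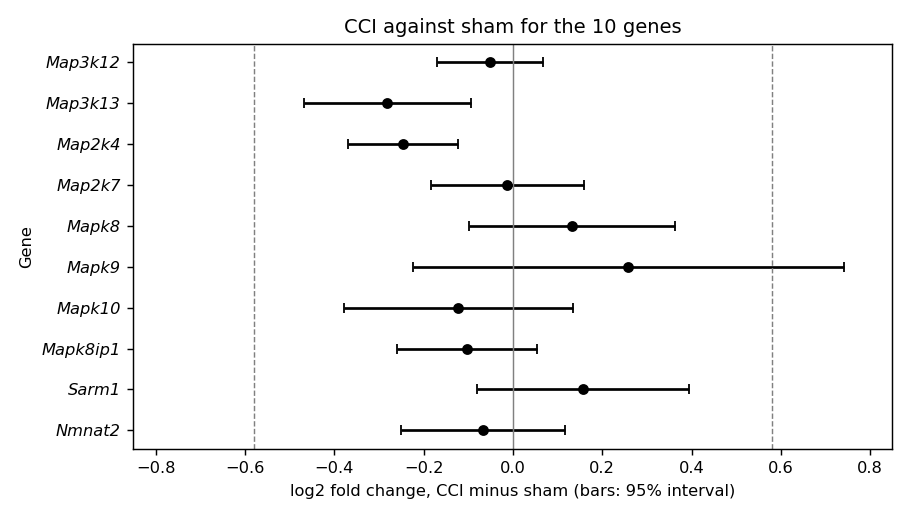
The log2 fold change of each gene, CCI minus sham, with its 95% interval from the edgeR fit (n = 3 per group). Dashed lines mark the limits of 0.58, and the intervals of Map3k13 and Map2k4 are the 2 that do not reach 0.

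Of the MAP3Ks at the head of the cascade, Map3k13 had non-overlapping groups and Map3k12 did not. Map3k13 (MSTRG.7409, chromosome 11, 82745735 to 82939054) measured 32.1, 33.2 and 31.6 CPM in CCI 1, 2 and 3 and 37.1, 43.1 and 37.6 CPM in sham 1, 2 and 3, where CPM are counts scaled to a common library size. Every CCI sample lay below every sham sample. Groups failed to overlap in this way in 2 of the 10 genes, Map3k13 and Map2k4, and in 17.3% of all rows tested. The log2 fold change of Map3k13 was -0.28 (95% interval -0.47 to -0.09), with an unadjusted p of 0.00973 and a Benjamini-Hochberg adjusted p of 0.279 in edgeR's quasi-likelihood test. Map3k12 (MSTRG.26664, chromosome 7, 144102680 to 144115333), which encodes DLK itself, measured 82.3, 85.1 and 86.1 CPM in the CCI samples and 87.9, 89.0 and 85.7 CPM in the sham samples. The groups overlapped, and its log2 fold change of -0.051 had a 95% interval of -0.17 to 0.068.

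Relative to each other, Map3k12 RNA stood at 3.91, 3.91 and 4.16 times Map3k13 RNA in CCI 1, 2 and 3 and at 3.62, 3.15 and 3.48 times in sham 1, 2 and 3, on the FPKM scale. Each CCI sample had a higher ratio than each sham sample. The mean log2 ratio was 2.00 ± 0.051 in the CCI group and 1.77 ± 0.10 in the sham group (SD, n = 3), with p = 0.1 in a two-sided exact permutation test, the smallest that 3 against 3 allows, and 0.333 after adjustment over 5 shares and ratios.

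Of the MAP2Ks, Map2k4 (MSTRG.5366, chromosome 10, 52078981 to 52290657) had the smallest p of the 10 genes in the edgeR fit. It measured 124, 126 and 129 CPM in CCI 1, 2 and 3 and 143, 152 and 154 CPM in sham 1, 2 and 3. The groups did not overlap, and the samples of each group lay close together. The mean was 126 ± 2.56 CPM under CCI against 150 ± 5.58 CPM under sham (SD, n = 3), and the log2 fold change was -0.25, with a 95% interval of -0.37 to -0.12. The unadjusted p was 0.00237, and the adjusted p was 0.177 in edgeR's quasi-likelihood test. DESeq2 gave an adjusted p of 0.0270, with values between 0.0270 and 0.441 under the alternatives. Map2k7 (MSTRG.7647, chromosome 12, 2541352 to 2555164), which encodes the other JNK-activating MAP2K, shares its row with the overlapping gene Tgfbr3l. It measured 51.6, 52.8 and 59.1 CPM in the CCI samples and 56.2, 55.9 and 52.8 CPM in the sham samples. The groups overlapped, with a log2 fold change of -0.012 (95% interval -0.18 to 0.16) whose sign turned in limma and when CCI 1, CCI 2, sham 1 or sham 2 was left out, to at most 0.025.

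The promoters of Map3k13 and Map2k4, the 2 genes with an unadjusted p under 0.05 though neither was called, are shown as RefSeq gives them in GRCr8 from 250 bases before to 50 bases after the gene start. Promoters of 8 of the 10 genes and of 7 of 11 axotomy response genes were matched by symbol. Both strands were searched for TGACTCA, the AP-1 motif bound by Jun dimers, and for TGACGTCA, the cyclic AMP response element (CRE) bound by ATF and CREB proteins. Neither motif contains the other. The AP-1 motif was in 4.63% and the CRE in 1.83% of 33469 promoters. Capitals mark these motifs in the promoters of Map3k13 (chr11:92739614-92739913, minus strand), Map2k4 (chr10:50946990-50947289, minus strand), Mapk10 (chr14:6802044-6802343, plus strand) and, for comparison, the response gene Sprr1a (chr2:180752576-180752875, minus strand).
Map3k13: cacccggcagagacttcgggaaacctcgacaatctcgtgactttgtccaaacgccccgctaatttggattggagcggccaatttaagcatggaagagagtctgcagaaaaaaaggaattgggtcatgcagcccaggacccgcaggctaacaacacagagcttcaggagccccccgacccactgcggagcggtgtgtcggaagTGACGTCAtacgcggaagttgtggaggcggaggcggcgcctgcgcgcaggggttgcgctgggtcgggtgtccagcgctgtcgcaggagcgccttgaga
Map2k4: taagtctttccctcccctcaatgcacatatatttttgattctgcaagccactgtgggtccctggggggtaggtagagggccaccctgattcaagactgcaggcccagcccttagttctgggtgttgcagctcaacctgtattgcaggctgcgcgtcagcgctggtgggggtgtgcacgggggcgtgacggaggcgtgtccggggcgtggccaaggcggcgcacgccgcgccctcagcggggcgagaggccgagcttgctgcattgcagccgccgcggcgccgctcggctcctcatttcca
Mapk10: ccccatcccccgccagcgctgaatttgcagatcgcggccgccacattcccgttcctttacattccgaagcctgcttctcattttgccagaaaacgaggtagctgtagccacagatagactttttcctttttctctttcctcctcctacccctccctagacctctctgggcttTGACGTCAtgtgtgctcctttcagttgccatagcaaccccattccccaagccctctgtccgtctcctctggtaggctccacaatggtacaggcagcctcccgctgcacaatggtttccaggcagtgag
Sprr1a: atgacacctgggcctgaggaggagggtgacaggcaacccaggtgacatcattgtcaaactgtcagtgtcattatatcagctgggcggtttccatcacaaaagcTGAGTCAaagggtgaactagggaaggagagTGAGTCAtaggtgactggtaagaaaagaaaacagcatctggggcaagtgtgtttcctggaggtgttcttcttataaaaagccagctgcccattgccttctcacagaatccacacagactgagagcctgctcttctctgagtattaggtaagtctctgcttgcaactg
Of the 8 matched genes, 2 held the CRE, Map3k13 at 48 and Mapk10 at 78 bases before the start, and 0 held the AP-1 motif. Their promoters had a median GC content of 62% against 51.7% for all promoters, and the bearing of this on the motif counts was not tested. The window of Map2k4 held neither run of letters. Sprr1a was the 1 matched response gene with the AP-1 motif, which it held at 147 and at 117 bases before the start. A match describes the letters in the window, and binding was not measured.

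On the rows chosen for them, the 3 JNK genes had similar levels per length. Mapk9 (MSTRG.5129, chromosome 10, 35333859 to 35374355), which encodes JNK2, measured 100.8, 166.6 and 100.9 CPM in CCI 1, 2 and 3 and 101.2, 107.8 and 99.0 CPM in sham 1, 2 and 3. CCI 2 was high, and the other 2 CCI samples lay among the sham samples. The log2 fold change was 0.26 (95% interval -0.22 to 0.74), with an adjusted p of 0.733 in edgeR's quasi-likelihood test, and without CCI 2 it was -0.024. Mapk8 (MSTRG.11604, chromosome 16, 9625164 to 9709347), which encodes JNK1, measured 33.9, 35.7 and 29.3 CPM in the CCI samples and 27.8, 31.1 and 31.3 CPM in the sham samples. CCI 3 lay within the sham range, and the log2 fold change of 0.13 had a 95% interval of -0.097 to 0.36. Without CCI 2 the log2 fold change was 0.074, and without CCI 3 it was 0.21. Mapk10 (MSTRG.9559, chromosome 14, 8079853 to 8373007), which encodes the neuron-enriched JNK3, measured 244, 290 and 284 CPM in the CCI samples and 289, 336 and 266 CPM in the sham samples. The groups overlapped, with a log2 fold change of -0.12 (95% interval -0.38 to 0.14). It lay between -0.19, without sham 3, and -0.023, without sham 2.

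The summed FPKM of the 3 JNK genes was 52.9 ± 7.26 in the CCI group and 49.9 ± 3.27 in the sham group (SD, n = 3, p = 0.5 in a two-sided exact permutation test). Mapk10 held 35.1%, 33.0% and 40.6% of this sum in CCI 1, 2 and 3 and 41.6%, 43.1% and 38.3% in sham 1, 2 and 3. The lowest values were in CCI 1 and CCI 2, while CCI 3 lay among the sham samples. The mean share of Mapk10 was 36.2% ± 3.90 against 41.0% ± 2.46 (SD, n = 3), with p = 0.2 in the exact permutation test and 0.333 after adjustment. For Mapk9 the share was 29.6% ± 4.86 in the CCI group and 26.4% ± 0.692 in the sham group (SD, n = 3, exact p = 0.3). For Mapk8 it was 34.2% ± 3.39 and 32.6% ± 2.29 (SD, n = 3, exact p = 0.5), and the difference turned in sign without CCI 1. Shares depend on the row lengths that the FPKM values imply, which were 1837 bases for Mapk8, 7762 for Mapk9 and 14382 for Mapk10.

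**Figure D3:**
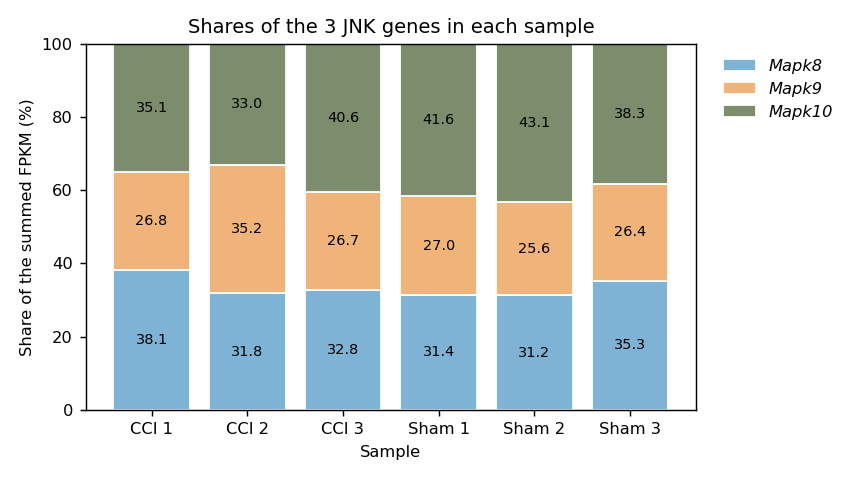
Stacked bars give the percentage of the summed FPKM of the 3 JNK genes held by Mapk8, Mapk9 and Mapk10 in each sample, with the value printed in each segment. Mapk9 reaches 35.2% in CCI 2 and lies between 25.6% and 27.0% in the other 5 samples.

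Mapk8ip1 (MSTRG.18792, chromosome 3, 81295024 to 81304181), the scaffold and the most abundant of the 10 genes, measured 326, 320 and 336 CPM in CCI 1, 2 and 3 and 332, 342 and 381 CPM in sham 1, 2 and 3. CCI 3 lay above sham 1, so the groups overlapped, and the log2 fold change was -0.10 (95% interval -0.26 to 0.055). That value went to -0.14 without sham 1 and to -0.040 without sham 3.

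Of the axon survival genes, Sarm1 (MSTRG.5683, chromosome 10, 65740825 to 65766050), whose product consumes NAD, measured 119.5, 99.3 and 101.4 CPM in CCI 1, 2 and 3 and 87.2, 104 and 96.1 CPM in sham 1, 2 and 3. CCI 1 was highest and sham 1 lowest, with the other samples overlapping. The log2 fold change was 0.16 (95% interval -0.080 to 0.39), and it ranged from 0.0675, without CCI 1, to 0.221, without sham 2. Nmnat2 (MSTRG.8907, chromosome 13, 70379346 to 70559458), whose product makes NAD in axons, measured 73.6, 68.4 and 73.7 CPM in the CCI samples and 70.5, 72.9 and 82.5 CPM in the sham samples. Sham 3 was high and the remaining samples overlapped, with a log2 fold change of -0.067 (95% interval -0.25 to 0.12) that went to 0.0046 without sham 3. Per length, Nmnat2 RNA stood at 2.45, 2.74 and 2.90 times Sarm1 RNA in the CCI samples and at 3.22, 2.79 and 3.42 times in the sham samples. CCI 3 lay above sham 2, so the groups overlapped. The mean log2 ratio was 1.43 ± 0.12 in the CCI group and 1.65 ± 0.15 in the sham group (SD, n = 3), with p = 0.2 in the exact permutation test and 0.333 after adjustment.

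For 6 of the genes there were further rows in the table, assembled loci that carry the same symbol and were tested apart. These were 8 rows, 4 on the strand of the gene and 4 on the other strand, and 0 of them were called at the study's limits by edgeR or DESeq2, with 1 at an unadjusted p under 0.05. Map3k13 has a neighbouring row on its strand (chromosome 11, 82742744 to 82745620) with 809, 894 and 984 counts in the CCI samples and 1556, 1407 and 1211 counts in the sham samples. The groups did not overlap in this row either, and its log2 fold change of -0.56 had an unadjusted p of 0.00456 and an adjusted p of 0.223 in edgeR's quasi-likelihood test, while DESeq2 put this row under an adjusted p of 0.05. With the rows of the same strand summed, an alternative chosen after seeing the data, Map3k13 had a log2 fold change of -0.36 and an adjusted p of 0.172 in the same edgeR test, and the adjusted p lay between 0.126 and 0.512 under all alternatives.

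The neighbouring row of Mapk8 (chromosome 16, 9618099 to 9624876) had 160, 4664 and 5356 counts in the CCI samples and 5053, 4364 and 4637 counts in the sham samples. CCI 1 alone was low. In CPM this row measured 1.97 in CCI 1, while CCI 2 (57.9) and CCI 3 (70.4) lay above the highest sham sample (57.6). An unnamed row on the other strand of the same stretch had 4894, 0 and 5075 counts in the CCI samples and 4889, 0 and 4492 counts in the sham samples, and here CCI 2 and sham 2 were at 0. The library protocol marks strand, but the use of strand in counting was not given in the sources used here, so reads of overlapping rows cannot be told apart. Summing the same-strand rows turned the log2 fold change of Mapk8 from 0.13 to -0.18, and the part of CCI 1 in this was not tested. The neighbouring row of Nmnat2 (chromosome 13, 70559800 to 70563061) held more counts than its main row in every sample, between 8140 and 10243, with a log2 fold change of -0.083 close to that of the main row.

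**Figure D4:**
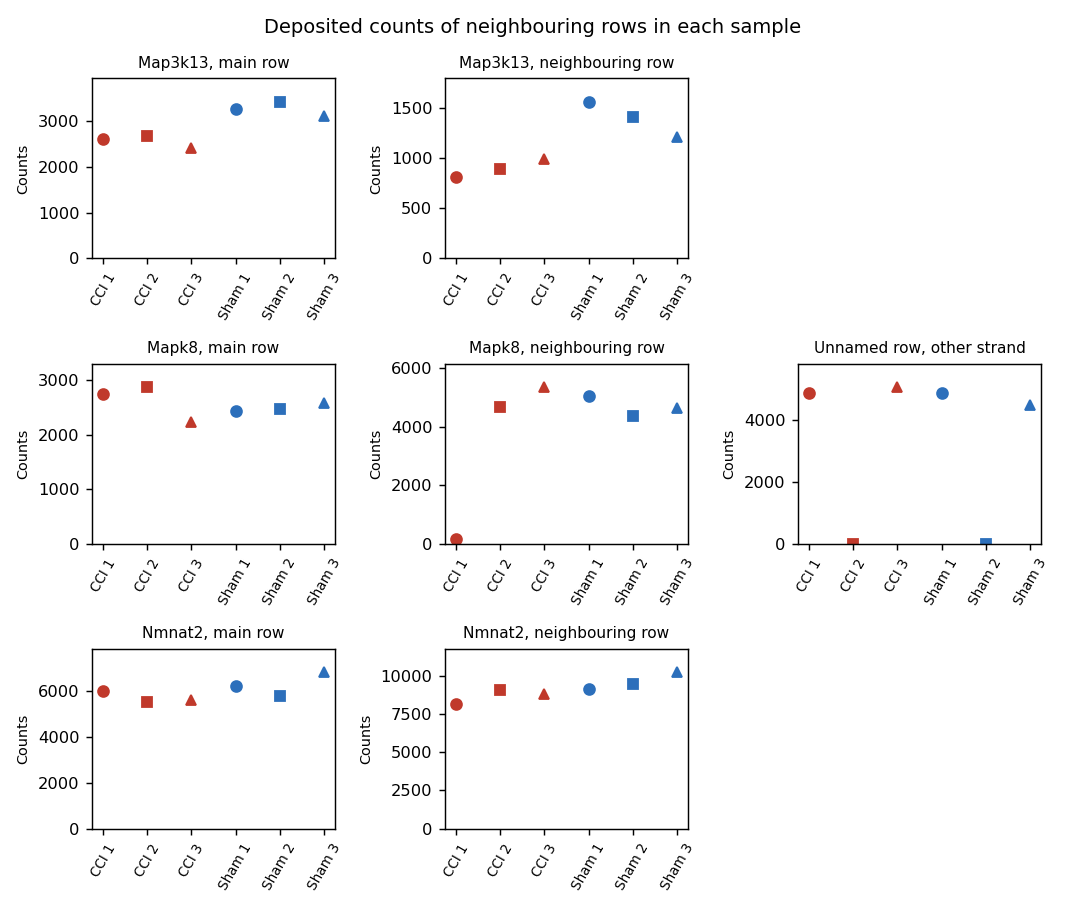
Deposited counts in each sample, with axes from 0, for the main and neighbouring same-strand rows of Map3k13, Mapk8 and Nmnat2 and for the unnamed row over the neighbouring row of Mapk8. Both rows of Map3k13 are lower in the CCI samples, CCI 1 drops to 160 in the neighbouring row of Mapk8, and CCI 2 and sham 2 are at 0 in the unnamed row.

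The cells of the ganglion were checked with marker lists. The 10 neuron markers were present in each sample, with a summed level of 11654, 12250 and 10590 CPM in CCI 1, 2 and 3 and 12815, 12502 and 11895 CPM in sham 1, 2 and 3, and Tubb3 was the most abundant per length. Of them 0 were called by edgeR, with 2 higher and 2 lower at an unadjusted p under 0.05 alone, 0 called by DESeq2, and 1 called lower when CCI 2 or sham 1 was left out. The mean log2 CPM of the neuron markers was 9.31 ± 0.069 in the CCI group and 9.41 ± 0.050 in the sham group (SD, n = 3, p = 0.2 in the exact permutation test). Macrophage markers were higher in the CCI group, with 7 of 12 called higher and 0 lower. Their summed level was 198, 172 and 134 CPM in the CCI samples and 98.4, 93.4 and 121 CPM in the sham samples. C1qc was the most abundant per length. None of the 12 was at 0 in any sample. Skeletal muscle markers summed to 396 CPM in sham 1 and to between 8.90 and 50.8 CPM in the other samples. Acta1 was the most abundant per length, and Tnni2 was at 0 in the CCI samples. Of these 7 markers 5 were called lower by edgeR and 6 by DESeq2. Under the alternatives the count lay between 0, with limma, and 7, without sham 2, and was 1 without sham 1, without CCI 2 or without CCI 3. The part of these cells in the values of the 10 genes was not tested.

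Set against the neuron markers, 5 of the 10 genes had groups that did not overlap, against 18.5% of all rows tested on the same scale. With the summed neuron level as the base this fell to 2 of 10, Mapk8 and Mapk9, against 17.1% of rows, so the count depends on how the neuron level is taken. In edgeR 4 of the 10 markers had an unadjusted p under 0.05. Tubb3 (log2 fold change 0.31) and Prph (0.25) were higher in the CCI group, and Nefh (-0.54) and Snap25 (-0.39) lower. A value set against the markers also carries these differences. On the scale used, log2 CPM minus the mean log2 CPM of the markers, Map3k13 was lower in the CCI group by a difference of -0.18 and Map2k4 by -0.14. Mapk8 was higher by 0.23, Mapk9 by 0.32 and Sarm1 by 0.26. Each of these had p = 0.1 in a two-sided exact permutation test of 3 against 3, which cannot go lower. With the summed level the exact p went to 0.2 for Map3k13 (-0.17), Map2k4 (-0.14) and Sarm1 (0.27). The difference of Mapk9 rested largely on CCI 2, without which it was 0.12, and that of Sarm1 fell to 0.16 without CCI 1. For the other 5 genes the differences lay between -0.017 in Mapk10 and 0.088 in Map2k7, and the sign turned with 1 sample left out in Mapk10 (CCI 1 or sham 2), Map2k7 (CCI 3), Mapk8ip1 (CCI 1, CCI 3, sham 1 or sham 2) and Nmnat2 (CCI 3 or sham 2), with ranges from -0.085 to 0.051, -0.00028 to 0.15, -0.045 to 0.069 and -0.012 to 0.11. Sarm1 measured -2.39, -2.75 and -2.59 in CCI 1, 2 and 3 and -2.92, -2.77 and -2.81 in sham 1, 2 and 3, so CCI 2 and sham 2 nearly met.

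Around the cascade, 14 other upstream kinases and regulators of DLK were tested, of which 1 was called higher and 0 lower, with a median log2 fold change of -0.085 against 0.0055 for all rows. Tnik, a MAP4K-type kinase, was the called gene. It measured 224, 147 and 140 CPM in the CCI samples and 69.1, 67.4 and 73.3 CPM in the sham samples, with each CCI sample far above the sham samples. Its log2 fold change was 1.28 (95% interval 0.84 to 1.72), with an adjusted p of 0.0935 in edgeR's quasi-likelihood test, and between 3.36e-10 and 0.281 under the alternatives. Mycbp2, a ubiquitin ligase that limits DLK, and Map3k10, a related mixed-lineage kinase, are named after their values were seen because they too had an unadjusted p under 0.05. Mycbp2 measured 502 ± 9.81 CPM under CCI against 558 ± 4.53 CPM under sham (SD, n = 3), with a log2 fold change of -0.15, and Map3k10 had a log2 fold change of -0.23. Usp9x, a deubiquitinase of DLK and the most abundant of the list at 53.4 FPKM, had a log2 fold change of -0.12 (95% interval -0.26 to 0.013).

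Of the other 4 JNK scaffolds 0 were called by edgeR or DESeq2, 2 had an unadjusted p under 0.05, and the median log2 fold change was -0.081. Mapk8ip3 was the most abundant at 97.3 FPKM, above Mapk8ip1, with a log2 fold change of -0.072. Sh3rf1, which encodes the scaffold POSH, had the largest fold change of the list, 19.7 ± 1.91 CPM under CCI against 14.7 ± 0.599 CPM under sham (SD, n = 3), with a log2 fold change of 0.42 (95% interval 0.19 to 0.65). Of 6 MAP kinase phosphatases 0 were called by edgeR or DESeq2 and 1 had an unadjusted p under 0.05, with a median of -0.011 that was of either sign under the alternatives. Dusp1, the most abundant per length, had a log2 fold change of 0.52 and was called without CCI 3 (0.61) and without sham 3 (0.60). Dusp19 had 280, 1537 and 463 counts in the CCI samples and 1601, 1563 and 1616 counts in the sham samples, with CCI 2 near the sham level. This gene was called when CCI 2 was left out, with a log2 fold change of -2.01 in place of -1.01.

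Downstream of the JNKs, 1 of 7 substrates was called higher and 0 lower, with a median of 0.15. The called gene was Jun, the transcription factor that JNKs phosphorylate, with 167, 133 and 119 CPM in the CCI samples and 65.9, 67.3 and 68.1 CPM in the sham samples. Jun was higher in each CCI sample than in each sham sample, with a log2 fold change of 1.06 (95% interval 0.76 to 1.36) and an adjusted p of 0.0712 in edgeR's quasi-likelihood test, and between 7.80e-12 and 0.227 under the alternatives. Map1b, a microtubule protein and the most abundant substrate at 845 FPKM, had a log2 fold change of -0.10. Of 11 axotomy response genes, Jun included, 10 were called higher and 0 lower, with a median of 1.97, and Klf6 was the one not called. Several of these genes were singled out by the study on these samples, so their direction is not independent evidence. The called genes were Atf3, Jun, Sprr1a, Gap43, Gal, Npy, Csf1, Sox11, Ecel1 and Gadd45a. Npy, a neuropeptide, had the largest fold change in the main fit, with 74.2, 40.7 and 34.8 CPM in the CCI samples and 0.775, 0.643 and 0.702 CPM in the sham samples, an adjusted p of 0.00490 in edgeR's quasi-likelihood test and values between 1.05e-99 and 0.0961 under the alternatives. Sprr1a was close to Npy, with a log2 fold change of 5.83 (95% interval 3.54 to 8.11) that its sham counts of 6, 6 and 0 bound poorly, and without sham 2 it stood above Npy, at 6.28 against 6.08. Npy has a neighbouring locus with like annotation in the table, and whether reads of Npy are shared with it was not tested. Atf3, a transcription factor of the injury response, measured 117, 67.4 and 53.8 CPM in the CCI samples and 6.32, 8.00 and 7.18 CPM in the sham samples. Gap43, a growth cone protein and the most abundant per length, measured 248, 204 and 164 CPM and 104, 106 and 93.1 CPM. CCI 1 was the highest sample in each of these 3 genes and in Jun.

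Among 11 NAD enzymes, 10 were tested, with a median log2 fold change of -0.00079, whose sign varied under the alternatives, and 1 was called higher and 0 lower. Cd38, an NAD-consuming enzyme of immune cells, measured 2.59, 2.57 and 2.83 CPM in the CCI samples and 2.30, 1.48 and 1.22 CPM in the sham samples. Its log2 fold change was 0.67 (95% interval 0.036 to 1.31), and DESeq2 called it too. The call was lost with either limma fit, where the log2 fold change was as low as 0.33, and when any sample other than sham 1 was left out, and at a mean of 1 FPKM the filter removed the gene. Without CCI 2 another enzyme of the list, Naprt, was called higher. Parp1, the most abundant, had a log2 fold change of 0.028, and Nmnat3, a relative of Nmnat2, lay under the filter and was not tested. Of 10 genes of axon breakdown and apoptosis 1 was called higher and 0 lower, with a median of 0.099. This was Casp6, a caspase of axon breakdown, with 3.97 ± 0.502 CPM under CCI against 2.56 ± 0.427 CPM under sham (SD, n = 3). Its log2 fold change of 0.63 (95% interval 0.18 to 1.09) was no longer past the fold limit without CCI 3 (0.52), without sham 3 (0.53) or with limma on log2(FPKM + 1) (0.39). Tnfrsf21, which encodes death receptor 6 and was the most abundant of the list, had a log2 fold change of 0.39.

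**Figure D5:**
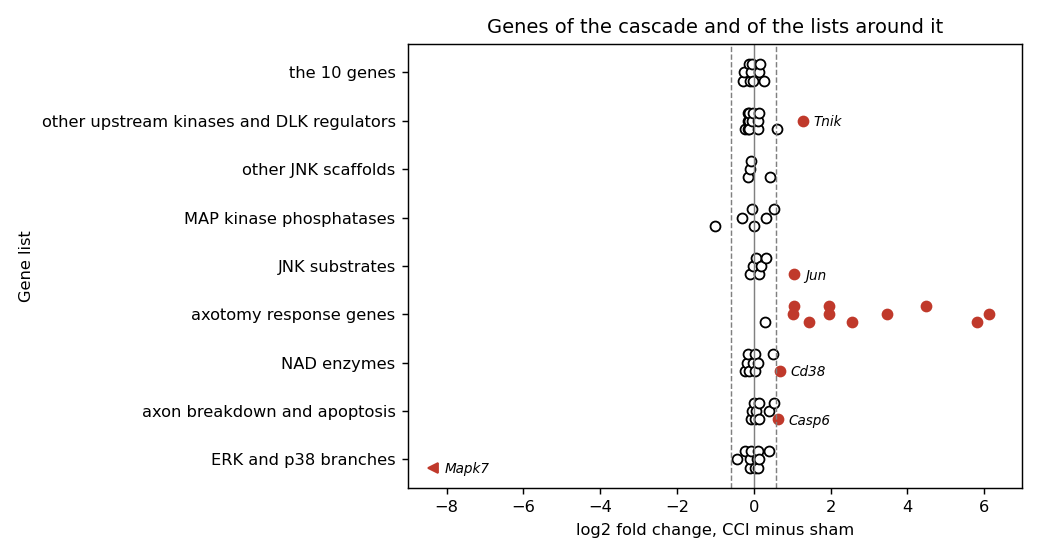
The log2 fold change, CCI minus sham, of each tested gene of the 10 genes and of the lists around them, with called genes in red, other genes as open circles and dashed lines at the limits of 0.58. The called genes of the axotomy response list, up to 6.14, stand to the right of the 10 genes, and Mapk7 is drawn with a triangle at its bound of -8.35.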

How the data were processed

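RNA of 6 DRG samples, 3 per group, was analysed from a table of the whole series, with samples grouped by surgery as labelled. The counts are whole numbers of reads per row that the authors deposited without normalization. The authors also deposited FPKM values, in which each count is scaled by library total and row length and a count of 0 is listed at 0.0001. Per the labels and methods, reads were aligned with HISAT2 (2.0 in the submitters' processing notes) to a rat genome called V101 and assembled with StringTie 1.3.0. Coordinates are those of the deposited table.

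Here edgeR 4.0.16 was used in R 4.3.3 with TMM factors and a trended prior, and was tested on simulated data first. The test covered rows whose FPKM averaged 0.5 or more, p-values were adjusted over the 26663 rows, and 95% intervals used the moderated standard errors. Shares, ratios and values relative to neuron markers were compared with two-sided exact permutation tests, adjusted over 5 shares and ratios. For the neuron-relative values an adjustment over the genes followed was also computed, but their p-values are printed without it. Replicate libraries were not duplicates of each other (chi-square per degree of freedom 57.3 to 84.2). Intervals cover the spread between these samples and the detection limit of 3 counts covers counting error only.

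Alternatives were DESeq2 1.42.0, upper-quartile factors, other filters, limma 3.58.1 on log2(FPKM + 0.1) and log2(FPKM + 1), a prior without trend, a replicate block, protein-coding rows alone, leaving out each sample, shares and ratios without length, and a summed neuron level. Named were the 10 genes and, of each list of pathway genes, the called genes, the largest fold change and the most abundant gene. Of the marker lists only some members were named. The members and lists were chosen with earlier results of these data known. Tables were made with Python 3.11.15, pandas 2.3.3 and scipy 1.17.1.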

Additional observations from a re-analysis of the deposited data

How the results depend on the processing

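Of 160 log2 fold changes of the 10 genes under 16 alternatives, 151 kept their sign and stayed uncalled and 9 turned in sign. No alternative called any of the 10 genes at the study's limits. Map3k13 stayed between -0.36 and -0.20 and Map2k4 between -0.28 and -0.22, each at an unadjusted p under 0.05 in every alternative.

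Map2k7 had a log2 fold change of 0.0021 with either limma fit, and between -0.075 and 0.025 with 1 sample left out. Mapk8 turned to -0.18 with same-strand rows summed, and Mapk9 to -0.024 (range to 0.38) and Nmnat2 to 0.0046 (range from -0.11) with 1 sample left out. So did Parp1 (-0.011 to 0.058) and Mapk3 (-0.00037 to 0.088). The difference in Mapk8 share ranged from -0.344 to 2.92 percentage points. Relative to neuron markers, with 1 sample left out, the difference of Map2k7 ranged from -0.00028 to 0.15, Mapk10 from -0.085 to 0.051, Mapk8ip1 from -0.045 to 0.069 and Nmnat2 from -0.012 to 0.11.

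At an adjusted p under 0.05, edgeR called 17 rows higher and 8 lower. DESeq2 called 432 and 319, with 1 of the 10 genes, limma on log2(FPKM + 0.1) 5 lower, the prior without trend 8 higher and protein-coding rows alone 41 and 35. With 1 sample left out the ranges were 3 to 40 higher and 3 to 21 lower. At the study's limits edgeR called 686 higher and 336 lower, limma on log2(FPKM + 1) 410 and 161 and protein-coding rows alone, with fewer rows tested, 353 and 115. The causes were otherwise not tested. Over all rows tested, the deviations of same-numbered samples from their group means had correlations of -0.0112, -0.0261 and -0.0745. Such a correlation takes all rows together, so a link confined to some rows was not tested. CCI 2 and sham 2 were both at 0 in the unnamed row over the neighbouring row of Mapk8. With a replicate block 0 and 0 rows passed the adjusted threshold and 617 and 318 the study's limits. Dusp19 was then among the called rows and Cd38 no longer. With 3 rats a group, differences smaller than the intervals printed could not be detected.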

Other observations

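The other MAP kinase branches gave 1 called gene among 12 tested, 0 higher and 1 lower, with a median log2 fold change of -0.0082, the same with that gene at its bound. The sign of this median varied under the alternatives, and without sham 3 Mapk13 was called higher. The called gene was Mapk7, which encodes ERK5 (chromosome 10, 47766680 to 47775055), with 0 counts in each CCI sample and 1106, 926 and 1047 counts in the sham samples. Against a detection limit of 3 counts per library it was at least 325-fold lower in the CCI group, with an adjusted p of 0.00453 in edgeR's quasi-likelihood test and values between 4.86e-22 and 0.194 under the alternatives. A count of 0 in 3 libraries of one group was not checked on reads. Mapk3, which encodes ERK1 and was the most abundant of the list at 261 FPKM, had a log2 fold change of 0.042 (95% interval -0.11 to 0.19).

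The difference in Tnik extended over its locus. Of 7 rows between the start of Tnik and the unnamed row just beyond its end, all of them tested, 7 were fitted higher in the CCI group and 5 were called. The groups did not overlap in 6 of the 7. A row within Tnik on the other strand (chromosome 2, 114101330 to 114120398) had 5408, 3732 and 3176 counts in the CCI samples and 2327, 2001 and 2081 counts in the sham samples, a log2 fold change of 1.01 that was called. These rows share a locus and, without a stated strand setting, may share reads, so they are not separate measurements.

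Map3k7, which encodes the kinase TAK1, had 2162, 1862 and 2205 counts in the CCI samples and 2119, 2220 and 0 counts in the sham samples. The 0 in sham 3 stands beside about equal counts in the other 5 samples, and it was named after its values were seen. Of the remaining marker lists, satellite glia, Schwann cell, endothelium, fibroblast, erythrocyte and adipocyte markers gave 0 called genes in edgeR, with 1, 0, 0, 0, 0 and 0 at an unadjusted p under 0.05, 0 in DESeq2, and medians of 0.030, -0.14, -0.062, -0.036, -0.45 and -1.72, the last from the 1 adipocyte marker tested, Fabp4. All of these but the Schwann cell median turned in sign with 1 sample left out, satellite glia to -0.00059 without sham 2, endothelium to 0.061 and fibroblast to 0.17 without CCI 1, and erythrocyte to 0.068 and Fabp4 to 0.63 without sham 1, so no direction is read from them. Without CCI 2, 1 Schwann cell marker was called higher. Of 6 T cell markers 1 was tested, Cd4, which was called higher, is the most abundant of the list and is also made by rat macrophages. The T cell markers summed to 19.0, 18.4 and 14.0 CPM in the CCI samples and 10.7, 10.3 and 11.4 CPM in the sham samples, nearly all of it Cd4. The other 5 had at most 27 counts in any sample, with Cd3d at 0 in each CCI sample and Cd8a at 0 in each sham sample, and with no filter 2 of the 6 were called higher and 0 lower. None of 4 B cell markers passed the filter. Cldn5 and Lep were at 0 in every sample.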
